A study of Mus musculus with 2 samples.

Results

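The genes described here are 42 integrins, selectins, other adhesion receptors and their cytoplasmic partners, taken by symbol from the 19057 genes named on the array. All 42 had at least 1 probe, 94 probes in all. They were measured in 2 samples of mouse Flt3-low Lin-Sca1+c-Kit+ (LSK) cells, the marrow fraction that holds hematopoietic stem cells. The first sample has the genotype labelled CA/CA and comes from the transgenic mice of the series, in which a constitutively active IKK2 kinase is expressed in hematopoietic stem cells. The second is labelled control. The sources used here do not give the number, age and sex of the mice, the driver of the transgene or the alleles that the control carries. Each genotype has 1 array, so no value below has a replicate error, no difference was tested, and the arrays stand for these samples only.

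Integrins are pairs of an alpha and a beta subunit that bind matrix proteins or receptors on other cells. Talin and kindlin attach to the beta tail from inside and switch the pair to its binding state. Stem and progenitor cells use integrins, selectin ligands and the chemokine receptor Cxcr4 to lodge in the marrow and to leave it. IKK2 activates the canonical NF-kB pathway, and Vcam1 is a textbook NF-kB target in endothelium.

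Most adhesion genes had similar signals in both samples, and the exceptions were Emp1 and Gpc1, which were several-fold lower in CA/CA. A probe counted as measured where its signal reached a background floor of 91.92 array units on at least 1 array. By this measure 29 of the 42 genes were measured, 23 of them on both arrays, 2 in CA/CA only and 4 in the control only. At least 2-fold higher in CA/CA were 0 of the 29, where 1.29% of all 10140 measured genes were. At least 2-fold lower were 2 of the 29, Emp1 and Gpc1, where 1.64% of all measured genes were. Without these 2 genes the count was 0 of 27. The 42 genes were chosen with earlier results of these data known, so the shares given here do not test for an excess. At a 1.5-fold size 3 of the 29 differed, Selplg being added, and all 3 were lower. Of all measured genes, 9.64% differed by that size in either direction and 5.64% were lower. Emp1 and Gpc1 were also the 2 genes at least 3-fold lower, with 0 at least 3-fold higher, where the shares of all measured genes were 0.345% and 0.542%. The median log2 difference, CA/CA minus control, was -0.12 over the 29 genes and 0.01 over all measured genes. Without Emp1 and Gpc1, left out after their values were seen, it was -0.10.

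Of the 23 genes measured on both arrays, 18 had a log2 difference below 0, which is 78.3%, against 48.6% of the 8516 genes measured on both arrays. Itga5 and Itgb5, at -0.003 and -0.002, are counted among the 18. Most of these differences were small. Only the probes give a measure of error, the SD between probes of the same gene, which was 0.24 on the log2 scale over 3868 genes and does not include variation between mice, sorts or RNA preparations. About 82 units of background remain in every value, so the differences of dim genes are understated. Signals of different genes come from different probes and are not compared with each other. In these bulk samples fewer cells of a type and less RNA per cell cannot be told apart.

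**Figure D1:**
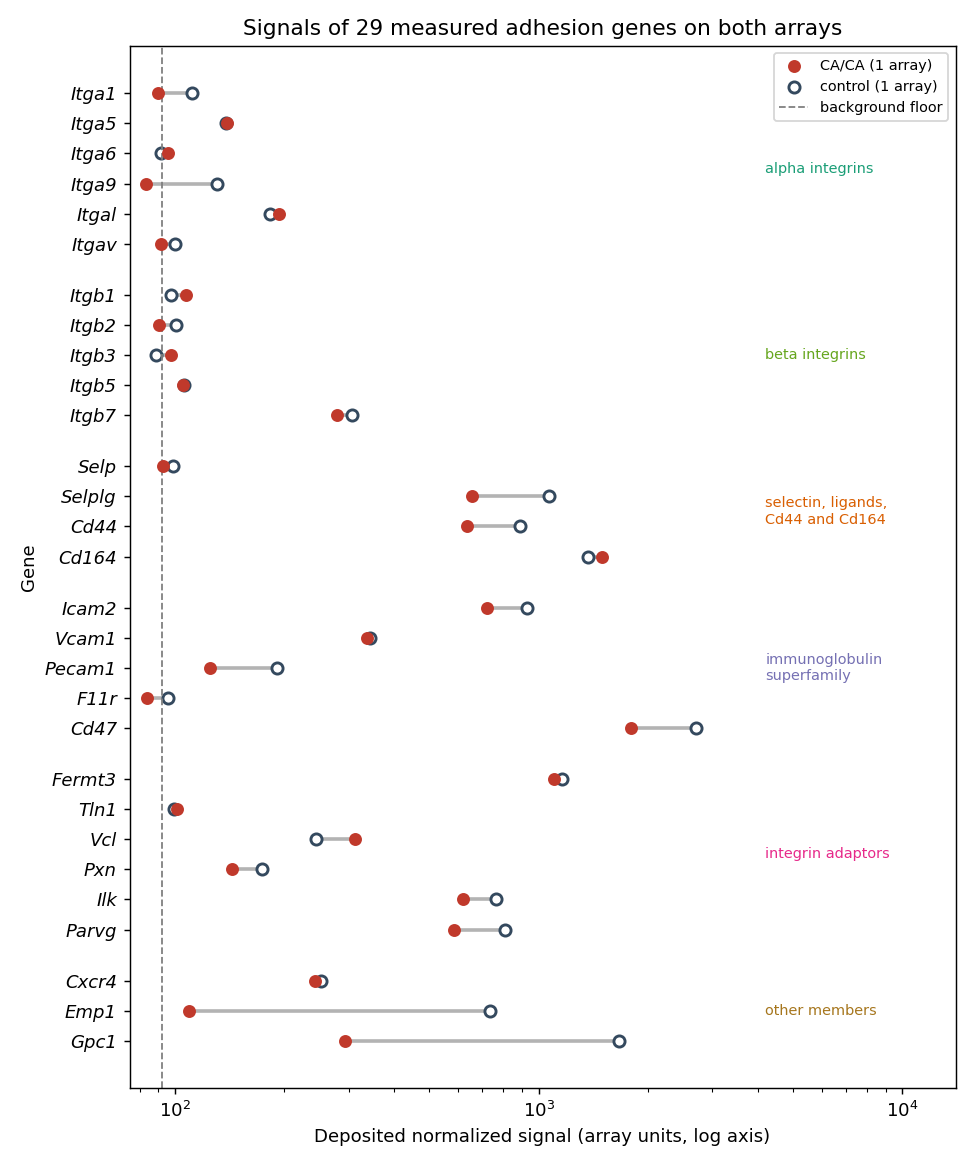
Deposited normalized signal (log axis, array units) of the 29 measured genes on the CA/CA array (filled points) and the control array (open points), grouped by role, with the background floor of 91.92 units as a dashed line. The points of Emp1 and Gpc1 lie far apart, at 109 and 293 in CA/CA against 735 and 1663 in the control, while most other pairs lie close together.

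Of the 13 alpha integrin subunits 6 were measured. The 3 measured on both arrays differed by less than 1.5-fold, and the 3 measured on 1 array have only a bound. Itgal, which pairs with beta 2 to form LFA-1, the leukocyte receptor for ICAMs, had a signal of 194 in CA/CA and 183 in the control. Itga5, the fibronectin receptor subunit, averaged 139 in CA/CA and 138 in the control over 2 probes, which differed by -0.05 and 0.05 on the log2 scale. Both differences were smaller than the SD between probes, which holds no error between samples. Itgav, which pairs with several beta subunits to bind vitronectin and other matrix proteins, averaged 91.80 in CA/CA and 99.92 in the control over 3 probes, with log2 differences of -0.20, -0.16 and 0.05, so its probes disagreed in sign.

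The widest alpha subunit difference was that of Itga9, whose product pairs with beta 1 and binds tenascin and osteopontin. Its 1 measured probe, ILMN_1242427, had a signal of 83.36 in CA/CA, below the floor, and 131 in the control. Since the CA/CA value is only a bound, Itga9 was at least 1.36-fold lower, a value computed against the lowest signal above the floor. After normexp background correction it was at least 2.18-fold lower, and the other 2 Itga9 probes stayed under the floor in both samples. Itga1, a collagen receptor subunit, was likewise below the floor in CA/CA, at 89.75, and at 112 in the control, at least 1.18-fold lower. Itga6, a laminin receptor subunit, had 2 probes above the floor in CA/CA only, with a mean of 95.53 in CA/CA and 91.63 in the control, at least 1.03-fold higher. The signals of Itga6 lie at the floor in both samples.

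Of the 5 measured beta subunits, 3 were measured on both arrays, and these differed by no more than 0.12 on the log2 scale. Itgb7, the partner of alpha 4 and alpha E, had a signal of 280 in CA/CA and 306 in the control. Itgb1, the partner of most matrix-binding alpha subunits, averaged 107 in CA/CA and 97.60 in the control, and both of its probes were higher in CA/CA, by 0.11 and 0.12. Itgb5, a vitronectin receptor subunit, stood at 105 in CA/CA and 106 in the control. None of these 3 pairs is farther apart than the spread between probes. Itgb2, the common subunit of the leukocyte integrins, was below the floor in CA/CA, at 90.43, and at 100.5 in the control, at least 1.08-fold lower. Itgb3, which pairs with alpha v and with the platelet subunit alpha IIb, was at 97.68 in CA/CA and below the floor in the control, at 88.68, at least 1.05-fold higher. Over all 11 measured integrin subunits the median log2 difference was -0.003. Of the 6 measured on both arrays, 2 were above 0 and 4 below 0. Among all genes measured on both arrays, 48.6% were below 0. For the 2 subunits measured in CA/CA only and the 3 in the control only, the floor rule fixes the sign.

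Below the floor on both arrays were 8 integrin subunits, Itga2, Itga3, Itga4, Itga7, Itgae, Itgam, Itgax and Itgb8. Itga4, the alpha subunit of VLA-4, which binds Vcam1 and is known on hematopoietic progenitors, had 6 probes with signals between 79.30 and 90.73. Itgae, the alpha subunit that binds E-cadherin, also had 6 probes, the highest at 91.89 and so just under the floor. Itgam, a subunit of Mac-1 on myeloid cells, had 1 probe, between 79.88 and 87.94. A signal below the floor does not show that a gene is silent, because a probe may bind its transcript poorly.

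Selplg and Cd44 were lower in CA/CA, and Selp and Cd164 were alike. Selplg encodes PSGL-1, the main selectin ligand on leukocytes and progenitors, through which they roll on endothelium. Its probe ILMN_2820893 had a signal of 845 in CA/CA and 1476 in the control, and its probe ILMN_2585233 had 465 in CA/CA and 665 in the control. The mean log2 difference was -0.65, or 1.57-fold lower, and both probes were lower by more than the SD between probes. Cd44, the hyaluronan receptor, which also carries selectin ligand sugars, had 9 probes, of which 2 were measured. These had signals of 907 and 364 in CA/CA and 1256 and 518 in the control, and their log2 differences of -0.46 and -0.49 were close to each other. The other 7 Cd44 probes did not reach the floor in either sample, and with all 9 averaged the difference was -0.11.

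Selp encodes P-selectin itself, which platelets and endothelium store and display. It lay at the floor, at 92.46 in CA/CA and 98.89 in the control, a log2 difference of -0.08. Cd164, a sialomucin of hematopoietic progenitors, had a signal of 1489 in CA/CA and 1369 in the control, a log2 difference of 0.12. Neither difference reached the SD between probes.

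In the immunoglobulin superfamily Cd47, Pecam1 and Icam2 were lower in CA/CA, and Vcam1 was alike in both samples. The median log2 difference of the 5 measured members was -0.36. All 5 means were below 0, Vcam1 only just and F11r near the floor, where 49.0% of all measured genes were below 0. Cd47, an integrin-associated protein that also restrains phagocytosis by macrophages through SIRP alpha, averaged 1796 in CA/CA and 2714 in the control. Its probes differed by -0.36 and -0.77 on the log2 scale, and their mean of -0.56 makes Cd47 1.48-fold lower, just short of the 1.5-fold size. Pecam1, an adhesion molecule of endothelium, platelets and progenitors, averaged 125 in CA/CA and 191 in the control. Both of its measured probes were lower, with log2 differences of -0.75 and -0.28 and a mean of -0.52. Icam2, a ligand of LFA-1, had a signal of 721 in CA/CA and 932 in the control, a log2 difference of -0.36.

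Vcam1 did not share this difference. Its 1 measured probe, ILMN_2778655, had a signal of 338 in CA/CA and 345 in the control, a log2 difference of -0.03, and its other 3 probes did not reach the floor. Across the alternatives of processing the difference took either sign, between -0.03 and 0.02. Icam1, another known NF-kB target, is not one of the 42 genes and was chosen after its values were seen. It had a signal of 505 in CA/CA and 273 in the control, a log2 difference of 0.85. F11r, the junctional molecule JAM-A, was below the floor in CA/CA, at 83.84, and at 95.91 in the control, at least 1.04-fold lower. Below the floor on both arrays were Jam2 and Jam3, the other junctional molecules on the list, Alcam, a receptor that binds itself and CD6, and Mcam, a marker of endothelium and stroma.

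**Figure D2:**
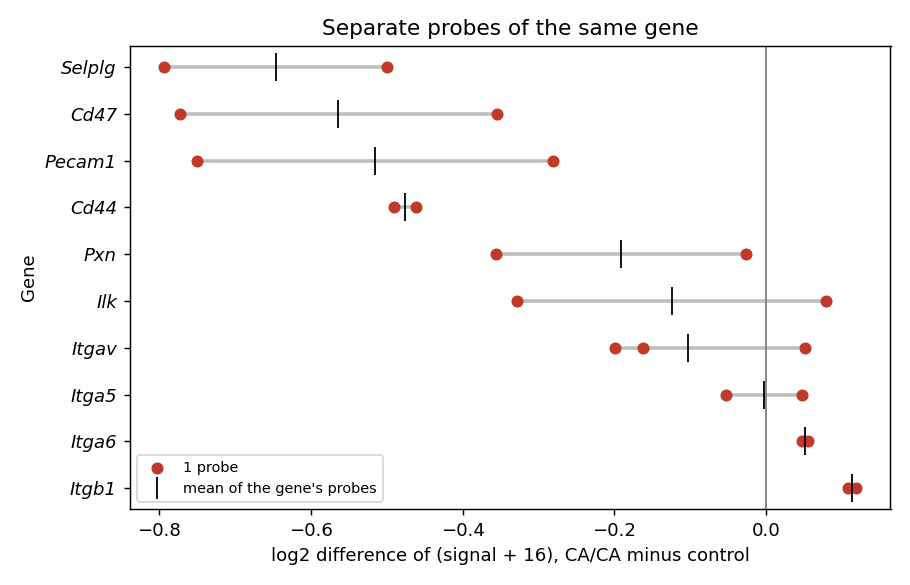
Log2 difference of signal plus 16, CA/CA minus control, of each measured probe (points) for the 10 genes with 2 or more measured probes, with the mean of the gene's probes as a vertical bar. All probes of Selplg, Cd47, Pecam1 and Cd44 lie below 0, and the probes of Ilk, Itgav and Itga5 lie on both sides of it.

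Where a gene had 2 or more measured probes, these mostly pointed the same way. Of 10 such genes, 7 had all probes of the same sign and 3 had probes of either sign. The same share over all genes is not given here, and among the 7 the probes of Itga6 lie near the floor. The other 19 measured genes, Emp1 and Gpc1 among them, rest on 1 probe each and have no such check.

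Of the cytoplasmic partners of integrins, Fermt3 and Tln1 were close in both samples, Parvg was lower and Vcl higher in CA/CA. The brighter probes of Ilk and Pxn were lower in CA/CA. Fermt3, the kindlin of blood cells, which binds beta tails, had a signal of 1102 in CA/CA and 1161 in the control. Tln1, the talin that activates integrins, had 101 in CA/CA and 99.08 in the control. Both activators of integrins thus differed by less than 0.1 on the log2 scale. Parvg, the parvin of blood cells, which binds Ilk, had a signal of 585 in CA/CA and 808 in the control, a log2 difference of -0.46. Vcl, vinculin, which links talin to actin, had 313 in CA/CA and 244 in the control, and its log2 difference of 0.34 was the highest of the 29 genes.

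Ilk, the integrin-linked pseudokinase, averaged 619 in CA/CA and 763 in the control, but its 2 probes disagreed. The brighter, at 1140 in CA/CA and 1435 in the control, differed by -0.33 and the other, near the floor, by 0.08. Pxn, the focal adhesion scaffold paxillin, averaged 144 in CA/CA and 174 in the control over 2 probes. The brighter, at 191 in CA/CA and 249 in the control, differed by -0.36 and the other, near the floor, by -0.03. Parvb, a second parvin, was below the floor on both arrays.

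The last 3 genes are not classical adhesion receptors. Cxcr4, the receptor for Cxcl12 that holds stem cells in the marrow, had a signal of 243 in CA/CA and 253 in the control, a log2 difference of -0.05. Emp1, a multi-pass membrane protein of the PMP22 family, had a signal of 109 in CA/CA and 735 in the control. Gpc1, glypican 1, a heparan sulfate proteoglycan anchored to the membrane by a lipid, had a signal of 293 in CA/CA and 1663 in the control. The CA/CA signal of Emp1 was not far above the floor, while that of Gpc1 remained well above it. Their log2 differences were -2.58 and -2.44, or 5.99-fold and 5.43-fold lower. Ordered from the lowest difference, Emp1 had rank 6 and Gpc1 rank 8 among the 8516 genes measured on both arrays. Each rests on a single probe, ILMN_2642913 and ILMN_2635784. After normexp background correction Emp1 was 13.4-fold lower and Gpc1 6.85-fold lower.

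**Figure D3:**
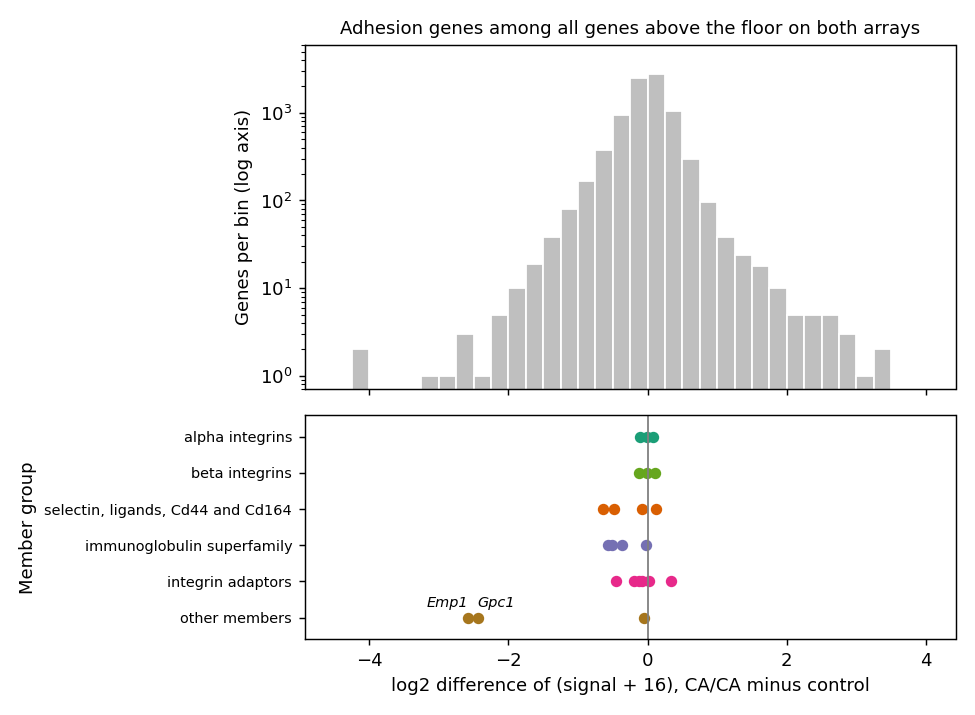
Log2 difference of signal plus 16, CA/CA minus control, for all 8516 genes above the floor on both arrays (upper panel, genes per bin on a log axis) and for the 23 adhesion genes among them by role (lower panel, 1 point a gene). Emp1 and Gpc1 lie in the low tail at -2.58 and -2.44, and the other 21 lie between -0.65 and 0.34.

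The start region of Emp1 is shown because Emp1 differed most, and that of Itga9 because it differed most among the integrins. RefSeq windows of assembly GRCm38.p6, from 250 bases before to 50 bases after a transcript start, were given for 28 of the 42 genes, 33 windows in all. Gpc1 has no entry. Capitals mark the AP-1 consensus TGACTCA, searched on both strands, which appears in the Emp1 window as its reverse complement. The first window lies at chr6:135362681-135362980 and the second at chr9:118711442-118711741, both on the plus strand.
Emp1: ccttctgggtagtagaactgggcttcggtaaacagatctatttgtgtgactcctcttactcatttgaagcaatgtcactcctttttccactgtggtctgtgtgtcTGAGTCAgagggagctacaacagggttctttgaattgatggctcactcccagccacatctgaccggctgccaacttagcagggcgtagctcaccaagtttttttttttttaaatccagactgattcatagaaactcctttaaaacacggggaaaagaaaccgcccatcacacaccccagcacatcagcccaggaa
Itga9: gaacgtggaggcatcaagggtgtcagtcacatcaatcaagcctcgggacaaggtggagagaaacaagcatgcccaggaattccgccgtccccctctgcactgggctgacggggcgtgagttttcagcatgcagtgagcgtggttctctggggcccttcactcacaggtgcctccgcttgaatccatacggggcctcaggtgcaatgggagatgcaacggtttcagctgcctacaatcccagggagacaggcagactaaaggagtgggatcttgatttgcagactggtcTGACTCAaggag

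In Emp1 the match begins 145 bases before the annotated start, and a second Emp1 window, at another start, has none. In Itga9 the match lies after the start. Emp1, F11r, Itga9 and Itgax were the 4 genes of the 28 with such a match, in 4 of 33 windows, and 5.2% of all 32851 windows hold it. The windows of Cd44 and Parvg, both lower in CA/CA, hold none, and no other motif was searched. Such matches describe these letters only and say nothing of binding.

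Other genes of adhesion, 126 on lists beside the 42, differed in both directions. Of 85 measured, 6 were lower by 2-fold or more and 3 were higher by as much, against the 1.64% and 1.29% of all measured genes given above. The median log2 difference was -0.14. Of the 69 measured on both arrays, 44 were below 0, against 48.6% of all genes measured on both arrays. Another 12 were above the floor in the control only and 4 in CA/CA only, which fixes their sign. Of the 4 measured further integrin subunits, 0 were called at least 1.5-fold apart, and Itga8, above the floor in the control only, has only a bound. Among them Itga2b, the platelet alpha IIb subunit, had a signal of 111 in CA/CA and 155 in the control.

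Among 18 measured surface adhesion genes, 2 were beyond 2-fold in each direction. Esam, an endothelial and stem cell adhesion molecule, was below the floor in CA/CA, at 90.74, and at 439 in the control, at least 4.21-fold lower. Cd63, a tetraspanin of lysosomes and granules that associates with integrins, averaged 259 in CA/CA and 1331 in the control over 3 probes, with log2 differences between -2.69 and -1.40. In the opposite direction, Icam4, the Landsteiner-Wiener blood group protein of red cell precursors, had 489 in CA/CA and 181 in the control. Cd82, another tetraspanin, had 1007 in CA/CA and 452 in the control.

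Of the 11 measured genes that take part in making selectin ligands, 0 were called at least 1.5-fold apart. B4galt5 was above the floor in CA/CA only and so has only a bound, at least 1.08-fold higher. Fut7, the fucosyltransferase that completes sialyl Lewis x on PSGL-1, had a signal of 110 in CA/CA and 154 in the control, a log2 difference of -0.43. St3gal6, a sialyltransferase, had 258 in CA/CA and 352 in the control. Tpst2 and Tpst1, which sulfate tyrosines such as those of PSGL-1, differed in opposite directions, by -0.45 and 0.35.

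Of 39 measured genes of integrin activation and focal adhesion signalling, 1 was beyond 2-fold in each direction. Zyx, zyxin, an actin-linked focal adhesion protein, had a signal of 2040 in CA/CA and 5475 in the control, a log2 difference of -1.42. Lpxn, leupaxin, the paxillin relative of blood cells, had 449 in CA/CA and 182 in the control, a log2 difference of 1.23. Vav3, a signalling protein, and Was, an actin regulator of blood cells, were close to 2-fold lower, at -0.97 and -0.96.

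Of 13 measured matrix and niche ligands, 3 were lower by 2-fold or more and 0 were higher by as much. Mfge8, a secreted ligand of alpha v integrins, averaged 342 in CA/CA and 1179 in the control, with both probes lower. Sdc4, a heparan sulfate proteoglycan like Gpc1, had 93.76 in CA/CA and 227 in the control. Col4a1, a basement membrane collagen chain, had 92.10 in CA/CA and 202 in the control. Both CA/CA values lie at the floor, and so their differences of -1.14 and -1.01 are understated by the background.

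**Figure D4:**
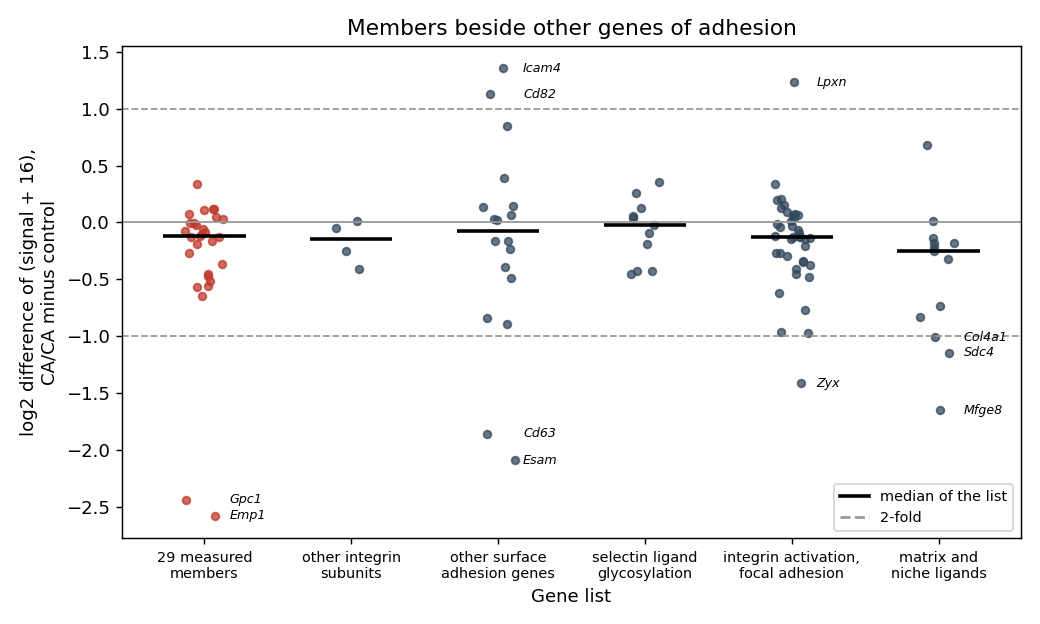
Log2 difference of signal plus 16, CA/CA minus control, of the 29 measured members and of 85 other measured adhesion genes in 5 lists (points), with the median of each list as a bar and 2-fold as dashed lines. List medians lie between -0.25 and -0.02, and the genes beyond 2-fold are named.

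Markers of other cells and of the sort moved between the samples beside these genes, and their part in the differences was not tested. Of the sort and stem cell markers, Kit averaged 677 in CA/CA and 970 in the control. Its 2 probes disagreed, at log2 differences of -0.58 and 0.21, with a mean of -0.18. Cd27 and Cd34, which are not in the sort named above, were lower, at -1.09 and -0.84. Ly6e was at -0.24 and Procr at 0.02. Slamf1, above the floor in the control only, was at least 1.17-fold lower. Flt3 was below the floor on both arrays, and Ly6a, which encodes Sca1, was not analysed here. Erythroid markers, 9 measured of 10 with a probe, had summed signals above the background mode of 12413 in CA/CA and 2615 in the control. Of the 9, 8 were higher in CA/CA, Ermap among them above the floor there only, while the globin gene Hba-a1 had 939 in CA/CA and 1036 in the control. B cell progenitor markers, 7 of 8, summed to 496 in CA/CA and 9161 in the control, with Pax5, and in the erythroid list Rhd, below the floor on both arrays. Granulocyte and monocyte markers, 12 of 12, summed to 38319 in CA/CA and 66833 in the control, with 10 of the 12 lower. The erythroid sum was thus higher in CA/CA, and those of the B cell progenitor and the granulocyte and monocyte lists were lower.

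Endothelial and stromal markers, Pecam1 among them, were measured for 10 of 14, and summed to 1126 in CA/CA and 3275 in the control. Igfbp4 alone, at 1105 in CA/CA and 1867 in the control, carries most of the CA/CA sum. Of the 10, 6 were above the floor in the control only, so the floor rule fixes their sign. The 4 measured on both arrays were all below 0, as were 48.6% of all genes measured on both arrays. Robo4, Esam and Emcn, above the floor in the control only, were at least 5.66-fold, 4.21-fold and 3.01-fold lower. Kdr, Col1a1, Col1a2 and Lepr were below the floor on both arrays, and Cdh5, which defines endothelium, was at 81.37 in CA/CA and 93.33 in the control. Megakaryocyte and platelet markers, Selp among them, were 8 of 9 measured, with Gp6 below the floor on both arrays, and summed to 179 in CA/CA and 597 in the control. Mast cell and basophil markers, 10 of 10, summed to 1641 in CA/CA and 3120 in the control. That lower sum comes from Hdc, Prss34 and Gata2, while the other 7 were higher in CA/CA and the list median was 0.19. For Tpsb2 and Mcpt4, above the floor in CA/CA only, the floor rule fixes the sign. Dendritic cell and macrophage markers, Vcam1 among them, were 9 of 11 measured, with Itgax and Cd209a below the floor on both arrays, and summed to 2346 in CA/CA and 886 in the control. The higher sum comes from the class II genes H2-Ab1 and Cd74. Of the 9, 6 were lower in CA/CA, C1qb, C1qc and Mrc1 among them, and the median was -0.20. However, 5 of the 9 were above the floor in the control only and 1 in CA/CA only, which fixes their sign. T and NK cell markers, 7 of 10, summed to 1240 in CA/CA and 4246 in the control, with Cd8a, Gzmb and Ncr1 below the floor on both arrays. Nkg7 alone, at 1055 in CA/CA and 4190 in the control, carries that sum, while 5 of the 7, the Cd3 genes among them, were higher in CA/CA and the median was 0.29. However, 3 of the 7 were above the floor in CA/CA only, which fixes their sign.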

How the data were processed

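RNA of 1 CA/CA and 1 control sample was hybridised to Illumina bead arrays. The values used were the authors' deposited normalized intensity of 45281 probes per array. The submitters' processing notes name BeadStudio, and for its version, settings and normalization the sources used here say nothing. The values were linear with background left in, and after sorting the largest gap between the columns was 0.0022 (log2), so their distributions were the same. A further table had 4 value columns with headings of no known sample, which were not used.

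Differences were taken on log2 of signal plus 16, CA/CA minus control, averaged over a gene's probes at or above the floor on at least 1 array. The floor was the background mode of 81.69, the median within the narrowest range that contains 25% of the values, plus 4 SD (2.56) of the values below it. Probe names came from the platform annotation, which gave 1 symbol for 34885 probes, several for 18 and none for 10378. Only the first kind was used. All 42 member symbols matched the RefSeq table by gene identifier. The design foresaw no test, and precision is limited by the number of arrays. The steps were run on simulated data in which only bright genes were changed, and by a large fold. That setting does not cover dim genes or small differences.

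Members, lists and thresholds were chosen with earlier results of these data known. The naming rule covered every member and, in each list of other adhesion genes, up to 4 genes with the largest differences. Icam1, the relatives of Emp1 and Gpc1 and the marker genes named beside the sums fall outside it and were chosen after their values were seen. Alternatives were offsets of 0 and 50, normexp background correction, floors at 3 and 6 SD or none, the brightest probe alone, dim signals raised to the floor, and thresholds of 1.5-fold and 3-fold. Python 3.11.15 with numpy 2.4.6, pandas 2.3.3 and matplotlib 3.10.9, and R 4.3.3 with limma 3.58.1, were used.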

Additional observations from a re-analysis of the deposited data

How the results depend on the processing

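Under the 8 alternatives of offset, background correction, floor and probe rule, 27 of the 29 measured genes kept the sign of their difference, 20 lower and 7 higher in CA/CA, and the exceptions were Itga5 and Vcam1, close to 0 throughout. F11r and Itga6 have no value at the highest floor. All of these alternatives reuse the same 2 arrays. Several of them, such as another offset, cannot turn the sign of a gene with 1 measured probe, and 19 of the 29 genes have 1. The kept signs are therefore no check on the direction of any gene. Emp1 ranged from -3.75 to -2.30 and Gpc1 from -2.78 to -2.32. The count at least 2-fold lower was 2 under each of these alternatives except normexp correction, where Itga9 made it 3, and the count at least 2-fold higher was 0 under all. After normexp correction, 4.66% of all measured genes were at least 2-fold lower and 2.84% at least 2-fold higher, 473 and 288 genes against 166 and 131. With Emp1 and Gpc1 left out, an alternative chosen after seeing the data, 0 genes were at least 2-fold lower. At a 3-fold size the counts of the 42 genes were 2 lower and 0 higher, and over all measured genes 35 lower and 55 higher. The median difference lay between -0.25 and -0.04, the last with all 42 genes kept whatever their signal. The floor at 3 SD measured 33 genes and that at 6 SD 27. No paired analysis was possible because each group has 1 sample. With 1 array per genotype, the low signal over background limits what can be said of the dim integrins.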

Other observations

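Relatives of the genes that differed most were chosen after their values were seen. Of 12 further PMP22 family, glypican and syndecan genes, 6 reached the floor in at least 1 sample. Their differences were all below 0, as were 49.0% of all measured genes, but those of Gpc6 and Sdc2, at -0.03 and -0.08, were within the SD of 0.24 between probes. Emp3, a relative of Emp1, averaged 2059 in CA/CA and 2708 in the control, and its probes differed by -0.48 and -0.34 on the log2 scale. Gpc3, a relative of Gpc1, averaged 95.83 in CA/CA and 124 in the control. Among syndecans, which carry heparan sulfate as glypicans do, Sdc3 had 104 in CA/CA and 137 in the control. Sdc4, given above, was the only one of the 6 beyond 2-fold. Gpc6 and Sdc2 stayed under the floor in CA/CA, with signals of 89.48 and 88.17, and had 91.94 and 94.34 in the control, so the floor rule fixes their sign. These genes were picked for their kinship with Emp1 and Gpc1, and no test was made.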
